A study of Homo sapiens with 2 samples.

Results

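Transcripts that host small nucleolar RNAs (snoRNAs) or microRNAs were examined in H1299 cells given 5 mM metformin and in untreated control cells. The members were every gene whose symbol begins with SNHG followed by a digit, together with GAS5, ZFAS1, DANCR, EPB41L4A-AS1, MIR17HG, MIR22HG and MIR31HG. This gave 36 genes of 27685 gene IDs in the deposited tables. H1299 cells were derived from a human non-small cell lung cancer, and metformin is a biguanide antidiabetic drug known to inhibit mitochondrial respiration. Each condition had 1 messenger RNA library from this line, and how long the drug was left on the cells is not given by the labels. With 1 library a condition there was no test and no measure of the variation between cultures, and the intervals below cover counting error only.

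A snoRNA host gene is transcribed like any other gene, and its introns release snoRNAs while its exons are spliced into a host RNA. Box C/D snoRNAs guide 2′-O-methylation and box H/ACA snoRNAs guide pseudouridylation, chiefly of ribosomal RNA, while small Cajal body RNAs (scaRNAs) guide the same changes in spliceosomal RNAs. Many spliced host RNAs begin with a run of pyrimidines, as ribosomal protein mRNAs do (the 5′ terminal oligopyrimidine, or TOP, sequence), and several are removed by nonsense-mediated decay when translated. MicroRNA host transcripts are instead cut by Drosha to release a hairpin.

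Depth was 31.7 M read pairs in the metformin library and 28.7 M in the control library, as estimated from the deposited coverage. Levels are in TPM, a relative abundance already divided by transcript length and by the total of the library. VIM and the keratins KRT8 and KRT18 were abundant in both libraries. EPCAM, CDH1 and NKX2-1 lay below 0.5 TPM, and the markers of other cell types (PTPRC, PECAM1, COL1A1, COL3A1 and ALB) were at 0 or reached at most 0.342 TPM.

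Of the 36 hosts, 32 were at 1 TPM or more, and each of these was so in both libraries. SNHG14 and SNHG18 were listed at 0 in both. SNHG14 is the long imprinted transcript of the Prader-Willi region. The SNRPN and SNURF genes that it overlaps were also listed at 0, so the absence of SNHG14 cannot be told apart from a failed estimate. SNHG28 was at 0.453 TPM in metformin cells and 0.141 TPM in control cells, and SNHG22 was at 0.028 TPM in metformin cells and listed at 0 in control cells.

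Together the hosts made up 4450.3 TPM in metformin cells and 3775 TPM in control cells, a ratio of 1.18. GAS5, SNHG5, SNHG29, ZFAS1 and SNHG32 had the largest gains in TPM. The hosts as a group did not stand to either side: 15 of the 32 were higher and 17 lower in metformin cells. Their median difference in log2(TPM + 1), metformin minus control, was -0.06, beside -0.08 over all 14078 measured genes. Their interquartile range was 0.79, against 0.44 over all measured genes and 0.51 over 927 other long noncoding RNAs. At 1.5-fold on this scale 2 hosts were higher (GAS5 and MIR31HG), where 5.4% of all measured genes were, and 2 were lower (DANCR and MIR17HG), where 7.03% were. At 2-fold 0 hosts were higher, beside 1.51% of measured genes, and 1 was lower, beside 1.24%. With so few members past either threshold, these shares are near the background.

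**Figure D1:**
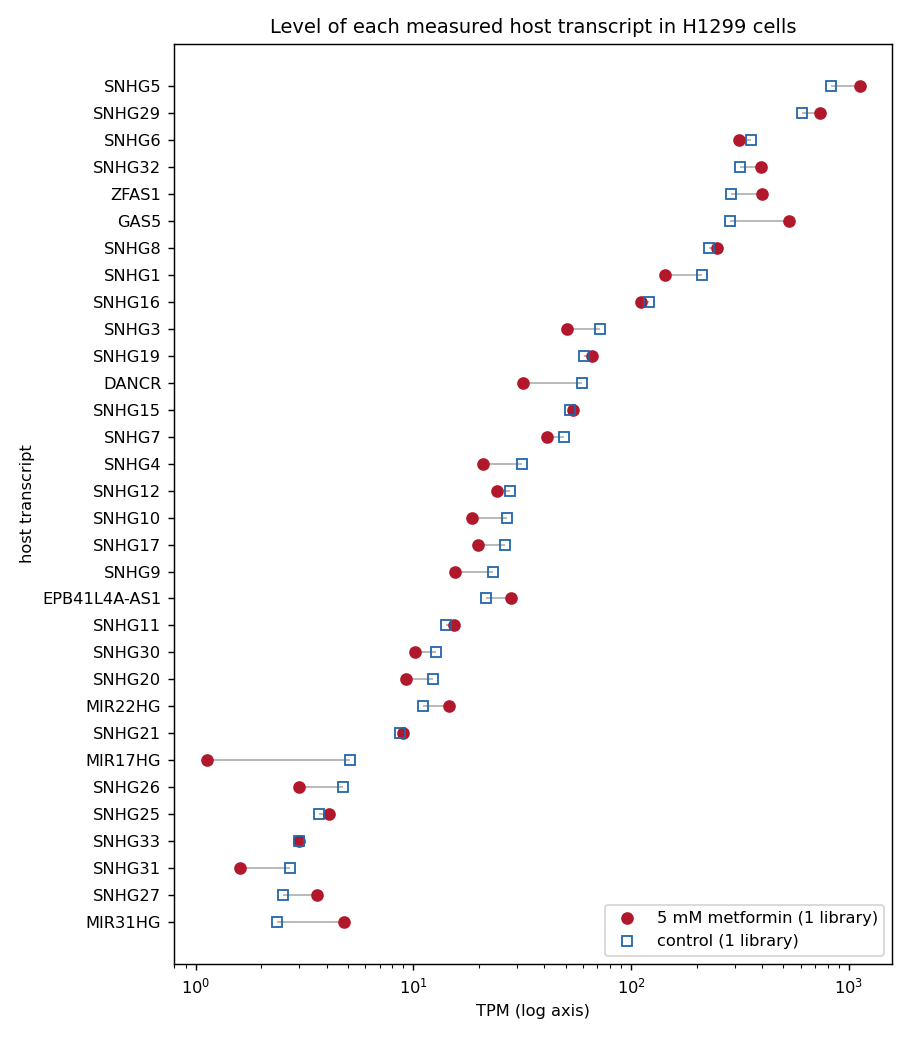
TPM on a log axis of the 32 measured hosts, ordered by their level in control cells, with filled circles for metformin and open squares for control (1 library each). SNHG5 is the most abundant host at 1123 TPM in metformin cells and 824 TPM in control cells, and MIR17HG, DANCR and GAS5 show wide gaps between their symbols.

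GAS5 had the largest positive difference of the group on the log2(TPM + 1) scale, while MIR31HG had the larger plain ratio and SNHG5 the larger gain in TPM. The gene (growth arrest specific 5, hg19 chr1:173833039-173837125, minus strand) carries 10 box C/D snoRNAs and 1 row annotated as box H/ACA, and its spliced RNA is a TOP transcript known to be degraded by nonsense-mediated decay and to bind the glucocorticoid receptor. It was at 528 TPM in metformin cells and 284 TPM in control cells, from an estimated 5320.1 and 2528 read pairs. The ratio was 1.86 (95% counting interval 1.77 to 1.95), and its log2 difference of 0.89 lay above that of 97.9% of measured genes. GAS5-AS1 on the opposite strand was at 1.21 TPM in metformin cells and 1.91 TPM in control cells, far below GAS5 in both.

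The other abundant box C/D hosts that were higher differed by less. SNHG5, host of the U50 snoRNAs, was at 1123 TPM in metformin cells and 824 TPM in control cells, a ratio of 1.36 (1.33 to 1.40). ZFAS1, which is transcribed from the promoter region of ZNFX1 in the opposite direction and carries the SNORD12 family, was at 399 TPM in metformin cells and 288 TPM in control cells, a ratio of 1.38 (1.31 to 1.46). None of these reached 1.5-fold. SNHG32, which carries SNORD48 and SNORD52, was at 393 TPM in metformin cells and 317 TPM in control cells, a ratio of 1.24 (1.18 to 1.30). SNHG29, which carries SNORD49A, SNORD49B and SNORD65, was at 741 TPM in metformin cells and 611 TPM in control cells, a ratio of 1.21 (1.16 to 1.27). Of the 9 hosts at 100 TPM or more in both libraries, 6 were higher in metformin cells, and of the other 23, 9 were. Over all 14078 measured genes 5671 were higher. That share was not computed for genes at 100 TPM or more, and whether it varies with level was not tested.

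SNHG1 and SNHG6 were abundant box C/D hosts that were lower. SNHG1, the U22 host gene and one of the first noncoding hosts described, was at 143 TPM in metformin cells and 212 TPM in control cells. Its ratio was 0.672 (0.636 to 0.710), and no other gene overlaps it. SNHG6 was at 314 TPM in metformin cells and 356 TPM in control cells, a ratio of 0.883 (0.832 to 0.936). SNHG16, host of the SNORD1 family, was at 111 TPM in metformin cells and 120.3 TPM in control cells, and its interval of 0.829 to 1.02 included 1. Abundant box C/D hosts thus lay on both sides.

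The remaining box C/D hosts were at lower levels. SNHG19 was at 66.2 TPM in metformin cells and 60.9 TPM in control cells, and SNHG25 was at 4.11 TPM in metformin cells and 3.70 TPM in control cells. Both intervals included 1, and SNHG25 rested on an estimated 7.92 and 6.31 read pairs. SNHG30 was at 10.2 TPM in metformin cells and 12.7 TPM in control cells, a ratio of 0.798 (0.653 to 0.975). SNHG26 was at 2.997 TPM in metformin cells and 4.77 TPM in control cells, a ratio of 0.628 (0.411 to 0.954). Across the 11 measured hosts of box C/D snoRNAs alone, 6 were higher and 5 lower, with a median difference of 0.12. SNHG12, which carries both classes, was at 24.4 TPM in metformin cells and 27.9 TPM in control cells, with an interval of 0.752 to 1.01.

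Of 12 hosts of box H/ACA snoRNAs 8 were lower, with a median difference of -0.32. Beside them, 8407 of all 14078 measured genes were lower, with a median of -0.08. The 8 include SNHG33, whose ratio of 0.992 is close to 1. Whether this class differs from the box C/D hosts was not tested. DANCR, a noncoding RNA known for restraining differentiation of epidermal progenitors and host of SNORA26, was at 32.0 TPM in metformin cells and 59.6 TPM in control cells. Its ratio was 0.537 (0.474 to 0.606), and its log2 difference of -0.88 lay above that of only 2.10% of measured genes. No other gene overlaps DANCR apart from the small RNAs inside it.

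The next hosts of this class were lower by less. SNHG3, host of the U17 snoRNAs, was at 50.5 TPM in metformin cells and 72.3 TPM in control cells, a ratio of 0.699 (0.653 to 0.748). It shares its strand with RCC1, which was at 137 TPM in metformin cells and 183 TPM in control cells. SNHG4 was at 21.0 TPM in metformin cells and 31.4 TPM in control cells, a ratio of 0.668 (0.552 to 0.807). SNHG4 likewise shares its strand with a gene that was lower, MATR3, at 171 TPM in metformin cells and 219 TPM in control cells. Reads of such pairs can be divided either way, and the part this plays in SNHG3 and SNHG4 was not tested.

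SNHG9 was at 15.5 TPM in metformin cells and 23.2 TPM in control cells, a ratio of 0.666 (0.484 to 0.913). SNHG17 was at 19.7 TPM in metformin cells and 26.3 TPM in control cells, a ratio of 0.750 (0.645 to 0.873). SNHG7 was at 41.3 TPM in metformin cells and 49.2 TPM in control cells, a ratio of 0.839 (0.753 to 0.934). These 3 intervals lay below 1, as did that of SNHG31, the least abundant of the class. For SNHG7 the deposited coverage stood for 42.9% of the TPM in metformin cells and 41.7% in control cells. Its interval rests on FPKM and would be wider if taken from coverage. SNHG31 was at 1.60 TPM in metformin cells and 2.70 TPM in control cells, a ratio of 0.593 (0.399 to 0.874).

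A further 4 hosts of the class were higher in metformin cells. EPB41L4A-AS1, host of SNORA13, was at 28.1 TPM in metformin cells and 21.6 TPM in control cells, a ratio of 1.30 (1.07 to 1.58). SNHG8, the most abundant host of the class, was at 248 TPM in metformin cells and 228 TPM in control cells, a ratio of 1.09 (1.01 to 1.17). The intervals of SNHG11, at 15.4 TPM in metformin cells and 14.1 TPM in control cells, and of SNHG15, at 54.4 TPM in metformin cells and 52.4 TPM in control cells, included 1. SNHG33, counted among the lower hosts, was at 2.97 TPM in metformin cells and 2.99 TPM in control cells, a ratio of 0.992. No read pairs could be estimated for SNHG33 because it had no transcript length in the reference.

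The 3 measured scaRNA hosts were of low to moderate level. SNHG10, host of SCARNA13, was at 18.5 TPM in metformin cells and 27.0 TPM in control cells, a ratio of 0.686 (0.5997 to 0.783). SNHG20 was at 9.26 TPM in metformin cells and 12.3 TPM in control cells, with an interval of 0.536 to 1.06. SEC14L1, which overlaps SNHG20 on the same strand, was at 109 TPM in metformin cells and 63.0 TPM in control cells, the opposite direction. SNHG21 was at 8.97 TPM in metformin cells and 8.68 TPM in control cells, with an interval of 0.744 to 1.44. SNHG27, which holds no small RNA row, was at 3.63 TPM in metformin cells and 2.53 TPM in control cells, with an interval of 0.799 to 2.64.

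**Figure D2:**
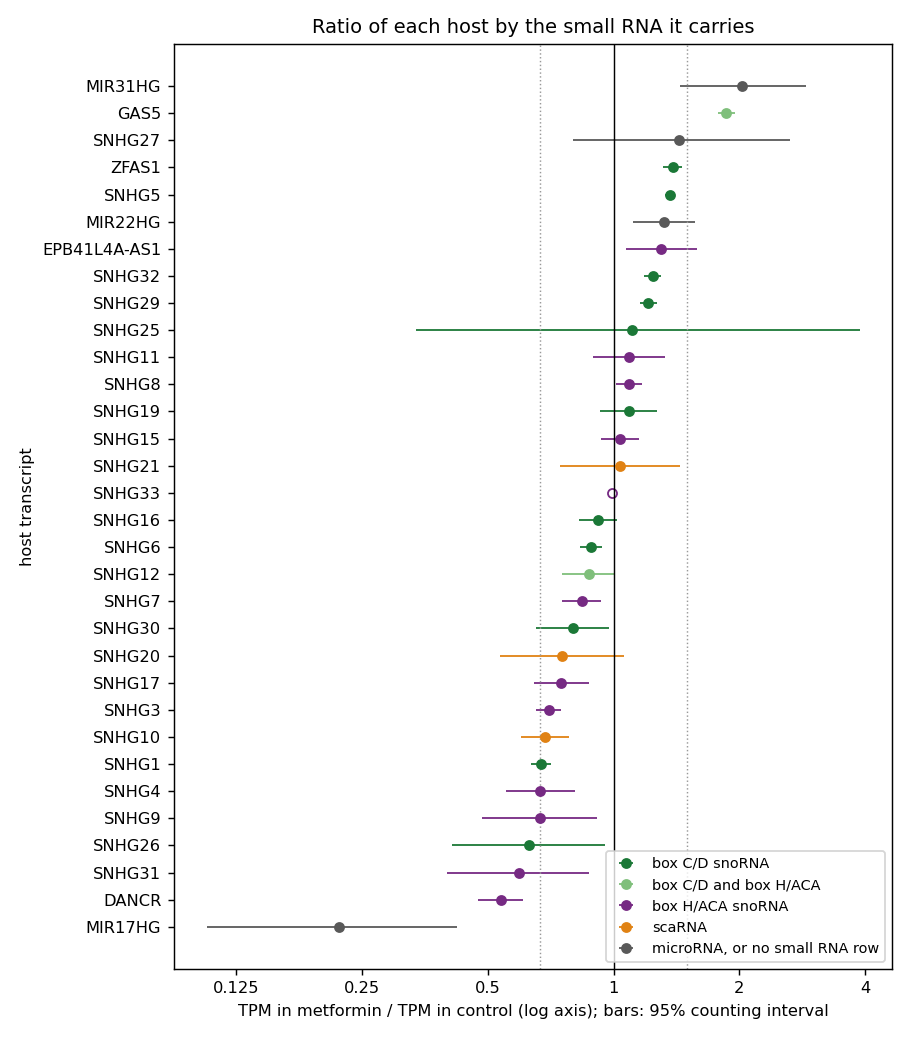
Ratio of TPM in metformin over control for each measured host on a log axis, with 95% counting intervals as bars, coloured by the class of small RNA the host carries; dotted lines mark 1.5-fold and the open symbol (SNHG33) has no interval. Hosts of box C/D snoRNAs lie on both sides of 1. Of 12 box H/ACA hosts 8 lie below it (SNHG33 at 0.992), as do 8407 of all 14078 measured genes. Of all intervals 13 lie below 1 and 9 above.

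The microRNA hosts differed in direction. MIR17HG is the primary transcript of the miR-17-92 cluster, a target of MYC known for promoting proliferation. MIR22HG yields miR-22 and MIR31HG is transcribed across the miR-31 hairpin. The mature microRNAs they can give rise to are shown, from RefSeq (GRCh38.p14), with the seed (bases 2 to 8) in capitals, to set apart the seed families that share 1 host.
hsa-miR-17-5p: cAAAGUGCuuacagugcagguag
hsa-miR-20a-5p: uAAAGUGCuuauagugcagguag
hsa-miR-18a-5p: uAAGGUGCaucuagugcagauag
hsa-miR-19a-3p: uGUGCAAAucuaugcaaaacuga
hsa-miR-19b-3p: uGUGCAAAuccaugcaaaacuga
hsa-miR-92a-3p: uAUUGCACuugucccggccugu
hsa-miR-22-3p: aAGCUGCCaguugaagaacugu
hsa-miR-31-5p: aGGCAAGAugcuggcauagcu
Within MIR17HG, miR-17-5p and miR-20a-5p share the seed AAAGUGC, and miR-19a-3p and miR-19b-3p share GUGCAAA. The 3 hosts have no seed in common among the arms shown.

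MIR17HG (hg19 chr13:92000074-92006829, plus strand) was at 1.12 TPM in metformin cells and 5.10 TPM in control cells, a ratio of 0.220 (0.106 to 0.423), from an estimated 11.6 and 46.4 read pairs. On the log2(TPM + 1) scale this was the only host past 2-fold. The deposited coverage of the same gene gave a smaller difference. On the TPM scale coverage was 1.12 in metformin cells and 2.08 in control cells, a ratio of 0.540. No interval was computed for this ratio, so whether it would include 1 is not known. Coverage stood for 100% of the TPM in the metformin library and 40.8% in the control library. The log2 difference of MIR17HG was -1.52 by TPM and ranged between -2.09 and -0.54 over the alternatives. A gap between coverage and TPM was not particular to MIR17HG: coverage stood for under 75% of the TPM in a library for 10 hosts, among them DANCR at 12.4% in both libraries, SNHG29 at 9.59% in metformin cells and 9.72% in control cells, and SNHG7 and SNHG12. The read pairs and intervals of these hosts rest on FPKM, not on coverage. Taken from coverage, the read pairs would be fewer and the intervals wider, and such intervals were not computed. In MIR17HG alone among measured hosts this percentage differed by more than 5 points between the libraries, and for each of the other measured hosts the ratio of coverage was within 4.05% of the ratio of TPM.

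**Figure D3:**
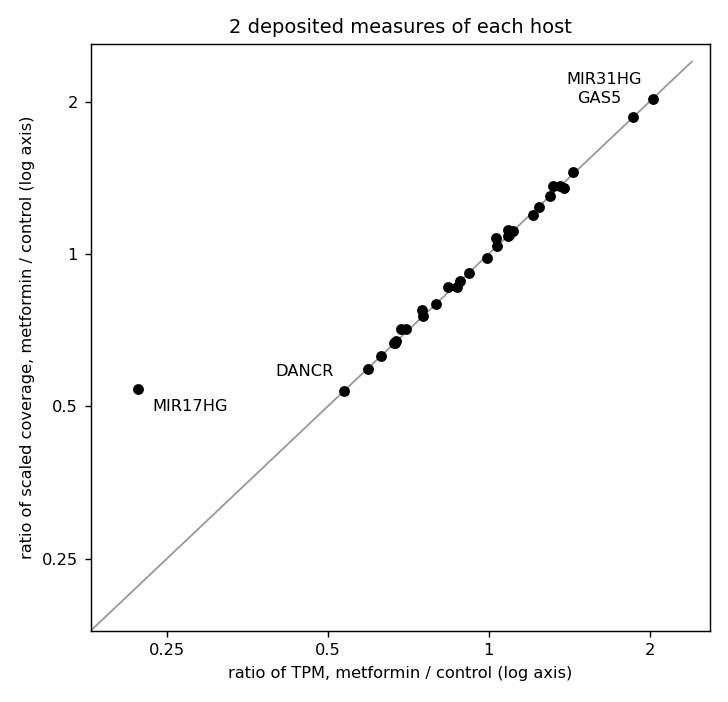
Ratio of scaled coverage against ratio of TPM (both metformin over control, log axes) for the measured hosts, with the line of equality. MIR17HG alone lies far from the line, at 0.220 by TPM and 0.540 by coverage, while GAS5, MIR31HG and DANCR lie on it.

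MIR31HG (hg19 chr9:21454267-21559697, minus strand) was at 4.82 TPM in metformin cells and 2.38 TPM in control cells, a ratio of 2.03 (1.44 to 2.89), from an estimated 114 and 49.6 read pairs. IFNE, which overlaps it on the same strand, was at 2.63 TPM in metformin cells and 1.75 TPM in control cells. MIR22HG was at 14.6 TPM in metformin cells and 11.1 TPM in control cells, a ratio of 1.32 (1.11 to 1.57). The hairpin rows themselves were at or near 0 in these messenger RNA libraries. MIR17, MIR18A, MIR19A, MIR20A and MIR19B1 were listed at 0 in both. MIR92A1 was listed at 0 in metformin cells and at 0.236 TPM in control cells, MIR22 was at 0.206 TPM in metformin cells and 0.222 TPM in control cells, and MIR31 was at 0.790 TPM in metformin cells and listed at 0 in control cells. Mature microRNAs are not captured by such libraries and their levels were not measured.

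The tables also list the small RNAs inside the hosts as rows of their own: 148 snoRNA and scaRNA rows lay within 31 hosts on the same strand, with SNHG14 holding 83 small RNA rows, all listed at 0. Of the rows outside SNHG14, 59 lay in an intron, 3 across an exon boundary, 1 in an exon and 2 in a host with no reference transcript. Mature snoRNAs have no poly(A) tail, so in a poly(A) library these rows need not follow the mature RNA, and what their reads come from (intron, precursor or mature snoRNA) was not tested. At 1 TPM or more in at least 1 library were 55 of the 148 rows.

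These nested rows were mostly lower in metformin cells: 40 of 55 against 15 higher, with a median difference of -0.40. Among all 14078 measured genes 8407 were lower, with a median of -0.08. At 1.5-fold 13 were lower and 2 higher, where 7.03% of all measured genes were lower and 5.4% higher. At 2-fold 5 were lower and 0 higher, where 1.24% of all measured genes were lower and 1.51% higher. Over the 180 measured snoRNA and scaRNA rows elsewhere in the genome, 96 were lower and 84 higher, with a median of -0.03. At 1.5-fold 34 of these were lower and 26 higher, and at 2-fold 10 were lower and 9 higher. The difference between the nested rows and the others was not tested. Rows in 1 host share a precursor, and 19 of the 55 rows lay in GAS5 and SNHG1 alone.

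In GAS5 the nested rows and the spliced RNA differed in opposite directions. Its 11 rows summed to 218 TPM in metformin cells and 317 TPM in control cells, a ratio of 0.688 (0.618 to 0.766), beside 1.86 for the host. SNORD47 was at 33.8 TPM in metformin cells and 74.6 TPM in control cells, a ratio of 0.454 (0.3499 to 0.585). SNORD81 was at 14.6 TPM in metformin cells and 26.2 TPM in control cells, a ratio of 0.560 (0.369 to 0.841). Both intervals lay below 1. SNORD44 was at 22.0 TPM in metformin cells and 32.7 TPM in control cells, a ratio of 0.673 (0.474 to 0.951). SNORD79, SNORD80 and SNORD74 and the H/ACA row SNORA103 were also lower with intervals below 1, at ratios of 0.704, 0.689, 0.337 and 0.484, in that order. The intervals of SNORD75 and SNORD77 included 1. SNORD76 ran the other way, at 40.3 TPM in metformin cells and 28.97 TPM in control cells, a ratio of 1.39 (1.02 to 1.90), and SNORD78 was at 16.01 TPM in metformin cells and 12.5 TPM in control cells with an interval that included 1.

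SNHG1 and its rows differed in the same direction. Its 8 rows summed to 158 TPM in metformin cells and 204 TPM in control cells, a ratio of 0.777 (0.682 to 0.884), beside 0.672 for the host. SNORD29 was at 33.0 TPM in metformin cells and 58.1 TPM in control cells, a ratio of 0.569 (0.433 to 0.744). SNORD28 and SNORD30 were lower too, at ratios of 0.438 and 0.514. The intervals of SNORD25, SNORD26, SNORD27, SNORD22 and SNORD31 included 1, and SNORD22 was at 45.9 TPM in metformin cells and 45.3 TPM in control cells.

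SNHG5 and its rows also differed in opposite directions. Its rows SNORD50A and SNORD50B summed to 18.7 TPM in metformin cells and 30.05 TPM in control cells, a ratio of 0.623 (0.429 to 0.901), beside 1.36 for the host. SNORD50B alone was at 16.7 TPM in metformin cells and 27.1 TPM in control cells. SNORD87 in SNHG6 was at 6.75 TPM in metformin cells and 20.9 TPM in control cells, a ratio of 0.324 (0.181 to 0.558), beside 0.883 for the host. The SNORD1A, SNORD1B and SNORD1C rows of SNHG16 summed to 3.40 TPM in metformin cells and 9.95 TPM in control cells, a ratio of 0.341 (0.140 to 0.760). SNORD104 in SNHG25 was at 12.7 TPM in metformin cells and 21.4 TPM in control cells, a ratio of 0.593 (0.376 to 0.926).

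In the remaining hosts the summed rows had intervals that included 1. This held for the rows of ZFAS1 (SNORD12, SNORD12B and SNORD12C), which summed to 18.7 TPM in metformin cells and 17.7 TPM in control cells. It also held for those of SNHG29, at 54.8 TPM in metformin cells and 61.1 TPM in control cells, and of SNHG32, at 31.0 TPM in metformin cells and 38.8 TPM in control cells. Past 1.5-fold but on few fragments were SCARNA16 in SNHG20 and SNORA78 in SNHG9, which were higher, and SNORA71A in SNHG17 and SNORA13 in EPB41L4A-AS1, which were lower. The other rows at 1 TPM or more were SNORA26, SCARNA13, SNORA60, SNORA71E, SNORD99, SNORA44, SNORA16A, SNORA9, SNORA71B, SNORA71C, SNORD60, SCARNA15, SCARNA17, SNORD93, SNORA73B, SNORA63E and SNORA24, all with intervals that included 1. Of 23 measured hosts whose rows summed to 1 TPM or more in both libraries, 12 had a ratio above 1, and in 11 of these the rows had a ratio below that of the host. Of the 11 hosts with a ratio below 1, the rows lay below the host in 3. The hosts were split by the same ratio that the rows were compared with, so part of this contrast is built in. Set against 1 instead, the rows had a ratio above 1 in 2 of the 12 hosts above 1. They had a ratio below 1 in 7 of the 11 hosts below 1.

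**Figure D4:**
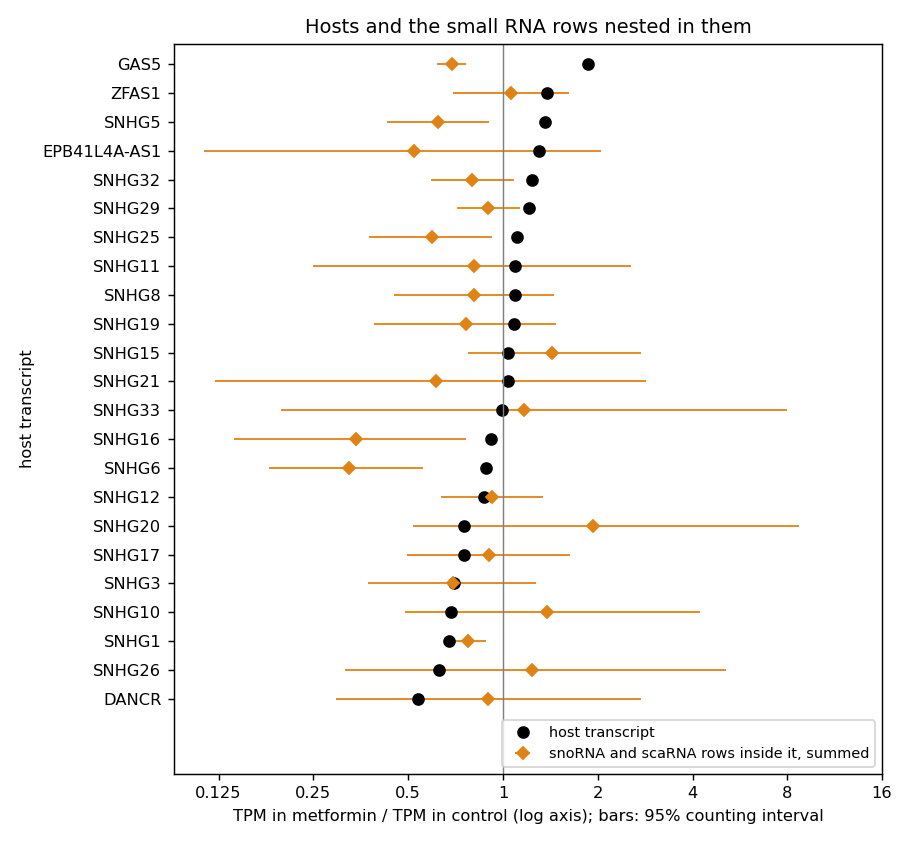
Ratio of TPM in metformin over control (log axis) for each of 23 hosts (black circles) and for the summed snoRNA and scaRNA rows inside it (orange diamonds, with 95% counting intervals), ordered by the host's ratio. In GAS5 and SNHG5 the diamond lies left of 1 and the circle right of it, while in SNHG1 both lie left of 1.

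The sequences of 6 of these box C/D snoRNAs are shown on hg19 to set the row that was higher beside rows that were lower. All are on the minus strand. SNORD47 (chr1:173833507-173833583), SNORD81 (chr1:173833284-173833360), SNORD44 (chr1:173835106-173835166) and SNORD76 (chr1:173835773-173835853) lie in GAS5, SNORD29 (chr11:62621376-62621440) in SNHG1 and SNORD50B (chr6:86387307-86387377) in SNHG5. Capitals mark a C box core TGATGA within the first 25 bases and the last CTGA, the D box, within the last 25.
SNORD47: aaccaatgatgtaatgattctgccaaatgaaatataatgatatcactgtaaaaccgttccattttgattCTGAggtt
SNORD81: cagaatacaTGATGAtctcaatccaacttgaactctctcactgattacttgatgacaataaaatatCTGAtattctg
SNORD44: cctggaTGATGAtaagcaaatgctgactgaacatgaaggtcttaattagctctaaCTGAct
SNORD76: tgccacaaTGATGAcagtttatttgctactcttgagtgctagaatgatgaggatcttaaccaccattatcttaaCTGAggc
SNORD29: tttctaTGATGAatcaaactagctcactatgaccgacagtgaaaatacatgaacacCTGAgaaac
SNORD50B: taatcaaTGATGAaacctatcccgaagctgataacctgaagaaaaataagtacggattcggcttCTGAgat
SNORD76, which was higher, and 4 of the 5 that were lower hold both boxes in these letters, and SNORD47 holds only the D box. On the transcribed strand alone, TGATGA was found in 25 of 36 box C/D rows at 1 TPM or more in the hosts (69.4%). Among 205 other SNORD rows, taken without a minimum level, it was found in 53.7%. CTGA was found in 100% of the host rows and 93.7% of the others. The sets are unlike, because only the host rows had to reach 1 TPM.

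The 5′ ends of the hosts were read next for the pyrimidine run of TOP transcripts. A run was counted where a C within 5 bases of the deposited 5′ end, on the transcribed strand, began at least 5 consecutive bases of C or T. It was found at 13 of 32 measured hosts (40.6%), at 20.1% of 13934 measured genes with 1 row, at 22.8% of 907 other long noncoding RNAs and at 49.4% of 81 ribosomal protein genes. By direction, 6 of the 15 that were higher (40%) and 7 of the 17 that were lower (41.2%) held one. The 20 bases before and the 30 from the deposited 5′ end are shown on hg19 for hosts that were higher (GAS5, SNHG5, SNHG32 and ZFAS1) and lower (SNHG16, DANCR, SNHG1 and SNHG3), with any run in capitals. They are GAS5 (chr1:173837096-173837145, minus strand), SNHG5 (chr6:86388422-86388471, minus strand), SNHG32 (chr6:31802672-31802721, plus strand), ZFAS1 (chr20:47894695-47894744, plus strand), SNHG16 (chr17:74553826-74553875, plus strand), DANCR (chr4:53578541-53578590, plus strand), SNHG1 (chr11:62623331-62623380, minus strand) and SNHG3 (chr1:28832435-28832484, plus strand).
GAS5: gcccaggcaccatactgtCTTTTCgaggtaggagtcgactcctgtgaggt
SNHG5: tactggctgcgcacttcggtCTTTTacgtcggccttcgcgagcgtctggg
SNHG32: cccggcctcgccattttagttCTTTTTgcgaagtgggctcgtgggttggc
ZFAS1: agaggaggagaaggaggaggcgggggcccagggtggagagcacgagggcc
SNHG16: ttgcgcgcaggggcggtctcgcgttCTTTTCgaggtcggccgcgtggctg
DANCR: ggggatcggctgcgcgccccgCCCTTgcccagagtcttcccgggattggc
SNHG1: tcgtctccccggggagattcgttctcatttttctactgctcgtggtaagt
SNHG3: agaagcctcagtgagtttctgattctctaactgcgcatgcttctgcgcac
Of the hosts shown, GAS5, SNHG5 and SNHG32, which were higher, and SNHG16, which was lower, hold CTTTT within 5 bases of the deposited end. SNHG19, which is not shown and had a log2 difference of 0.12, holds it too. CTTTT is narrower than the rule above, and it was not counted over all hosts or over all measured genes. SNHG8 and SNHG25, which were higher, and SNHG7, SNHG12, SNHG31 and MIR17HG, which were lower, hold other runs and are not shown. SNHG6, abundant and lower, holds a run of 13 pyrimidines, and DANCR holds a CCCTT. SNHG1 and SNHG3 hold no such run that begins within 5 bases of the deposited end. A deposited 5′ end need not be a start of transcription. The RefSeq start was read for ZFAS1 only, and not for SNHG1, SNHG3 or any other host. For ZFAS1 it differs from the deposited end, and around it (GRCh38.p14 chr20:49278622-49278671, plus strand) the same rule does find a run.
ZFAS1 at the RefSeq start: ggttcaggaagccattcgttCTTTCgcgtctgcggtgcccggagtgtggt

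MYC binds the E-box CACGTG, a palindrome that reads the same on both strands. Of 28 measured hosts with a RefSeq promoter window (250 bases before to 50 after the start), 2 held CACGTG (7.14%), SNHG7 and SNHG30, beside 7.26% of 35116 windows. Those 35116 windows were not limited to measured genes or to 1 window a gene, as the host windows were. MYC itself was at 241 TPM in metformin cells and 195 TPM in control cells. Of 11 measured genes reported to regulate hosts, 4 were higher and 7 lower, with a median difference of -0.03. ATF4, which drives the amino acid stress response, was at 683 TPM in metformin cells and 531 TPM in control cells. E2F1 and E2F3, cell cycle factors, were at ratios of 0.659 and 0.696, and LARP1, which binds TOP sequences, was at 235 TPM in metformin cells and 237 TPM in control cells.

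Other genes, most of them protein-coding, host snoRNAs too and set the noncoding hosts in context. Of 25 ribosomal protein genes that host snoRNAs 21 were higher, with a median difference of 0.10 and none past 1.5-fold. RPL12 was at 5611 TPM in metformin cells and 4143 TPM in control cells and RPS12 was at a ratio of 1.20. RPL13A and RPL21 had the lowest values, RPL13A at 1433 TPM in metformin cells and 1855 TPM in control cells and RPL21 at 5.54 TPM in metformin cells and 6.01 TPM in control cells. Many copies of these genes exist, so their rows are uncertain. Of 44 other hosts, all protein-coding apart from the transcribed pseudogene CCT6P1, 15 were higher and 29 lower, with a median of -0.13. The translation factors EEF1A1, at 14203 TPM in metformin cells and 9170.4 TPM in control cells, and EIF4A2, at 360.4 TPM in metformin cells and 233 TPM in control cells, were past 1.5-fold, 2 of 44 beside 5.4% of all measured genes. RCC1 and CCT6P1 had the lowest values, at ratios of 0.749 and 0.745.

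The mRNAs of proteins that bind and mature snoRNAs were set beside all 14078 measured genes, of which 8407 were themselves below 0 in log2 difference. All 4 box C/D core protein genes were below 0, with a median difference of -0.15. NOP58, a core scaffold protein, was at 142 TPM in metformin cells and 236 TPM in control cells, a ratio of 0.602. FBL (the methyltransferase), NOP56 and SNU13 had ratios between 0.878 and 0.952. All 4 box H/ACA core protein genes were likewise below 0, with a median of -0.15. GAR1 was at 49.9 TPM in metformin cells and 72.6 TPM in control cells, and DKC1 (the pseudouridine synthase), NHP2 and NOP10 had ratios between 0.896 and 0.914. Of 16 assembly and transport factors 14 were below 0, with a median of -0.23. ZNHIT3 and NOLC1 were highest, at ratios of 1.06 and 1.03, and RUVBL1 and RPAP3 lowest, at ratios of 0.743 and 0.773.

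The decay machinery had medians of the same order. Of 21 nonsense-mediated decay factors 18 were below 0, with a median of -0.23, and 2 were lower by 1.5-fold, a share near the 7.03% of all measured genes. These were UPF3B, at 31.8 TPM in metformin cells and 50.4 TPM in control cells, and DHX34, at 14.7 TPM in metformin cells and 24.3 TPM in control cells, while NBAS and SMG6 were highest, at ratios of 1.28 and 1.03. Of 22 factors of decapping, 5′ to 3′ decay and the exosome 20 were below 0, with a median of -0.25. At 1.5-fold 1 of the 22 was higher and 1 lower, beside 5.4% and 7.03% of all measured genes. The higher was the exosome subunit EXOSC1, at 61.3 TPM in metformin cells and 37.7 TPM in control cells. The lower was the decapping enzyme DCP2, at 7.57 TPM in metformin cells and 12.2 TPM in control cells. EXOSC7 and PNPT1 had ratios of 1.01 and 0.672.

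Of 19 microRNA biogenesis genes 15 were below 0, with a median of -0.18. PRKRA and AGO4 were highest, at ratios of 1.42 and 1.20, and TNRC6A and LIN28B lowest, at ratios of 0.640 and 0.724. Of 30 other microRNA host transcripts 12 were measured, 9 of them below 0, with a median of -0.22 that turned to 0.21 over the 3 left at a minimum of 5 TPM. MIR100HG and MIR762HG had ratios of 1.24 and 1.19, DLEU2 was at a ratio of 0.595, and MIR155HG was at 0.358 TPM in metformin cells and 1.10 TPM in control cells. Of 36 further long noncoding RNAs 23 were measured, 10 of them above 0 and 13 below, with a median of -0.08, and 2 were higher and 3 lower by 1.5-fold, beside 5.4% and 7.03% of all measured genes. MALAT1 was among the highest, at a ratio of 1.55, and SBF2-AS1 and TMPO-AS1 were lowest, at ratios of 0.420 and 0.606. The third of the lower ones was LINC00665 at a ratio of 0.654, named after its value was seen.

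**Figure D5:**
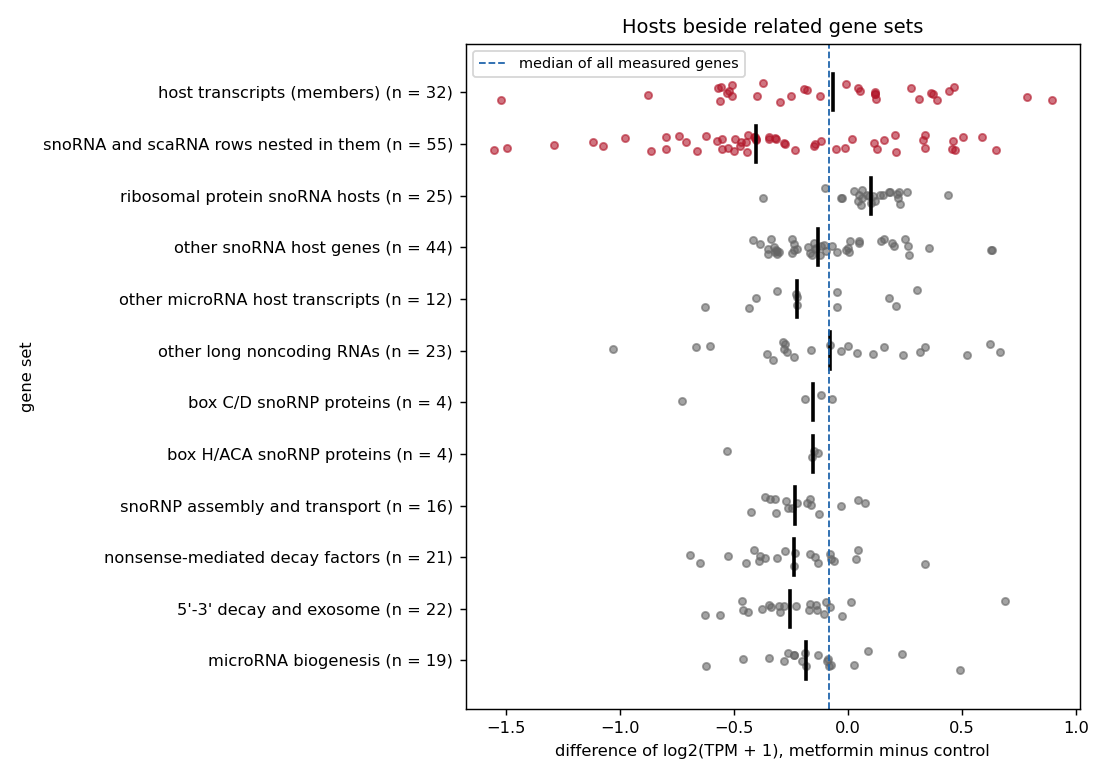
Difference in log2(TPM + 1), metformin minus control, for each measured gene of the hosts, of the small RNA rows nested in them (both red) and of related lists (grey), with a black bar at each median and a dashed line at the median of all measured genes. The hosts spread between -1.52 and 0.89 around a median of -0.06, the nested rows have a median of -0.40, and ribosomal protein hosts have a median of 0.10.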

How the data were processed

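RNA of H1299 cells with 5 mM metformin and of untreated control cells was sequenced as 1 library each. A stranded TruSeq mRNA kit and a NovaSeq instrument were used, with mapping to hg19 by Bowtie2, per the labels' protocols. Per the submitters' processing notes, Trimmomatic 0.38 and HISAT2 were among the tools and GRCh37 (hg19) was the build. Not given in the sources used here are the abundance program, its annotation, its use of strand and the duration of treatment. Without a stated use of strand, reads of overlapping genes cannot be told apart, and 15 of the 32 measured hosts overlap another gene.

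Per the file headers, the deposited tables give position, coverage, FPKM and TPM for each gene, in 28160 rows for metformin and 28157 for control. TPM was computed by the authors and is relative to all other transcripts. FPKM was deposited beside it and served as an alternative. Coverage was deposited as mean read depth, and it served for the depth and for another alternative. NCBI gene IDs were matched to RefSeq symbols (27559 matched, 126 not), and rows of an ID listed more than once were summed.

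The main measure was log2(TPM + 1) in metformin less that in control. A gene was measured if either library had 1 TPM or more, and counted at 1.5-fold or 2-fold on that scale, which understates differences of low genes. Ratios are of plain TPM. By plain ratio 2 hosts were higher and 5 lower past 1.5-fold. The share of all measured genes past 1.5-fold by plain ratio was not computed, so these counts have no background. Exact (Clopper-Pearson) 95% intervals came from read pairs of 202 bases, estimated from FPKM and the shorter of the canonical and median GENCODE 44 transcript length, and for nested rows from coverage. They cover counting error only, and PCR duplicates make them too narrow. Genomic sequence and exons came from hg19 and GENCODE 44. The self-made steps were tested on simulated data.

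Every host is named. Each list names its 2 highest and 2 lowest genes, or all where it holds 4 or fewer, with MYC, ATF4 and LARP1. Values of some genes that this rule names are not reported here. The members, lists and thresholds were chosen with earlier results of these data known. Python 3.11.15, pandas 2.3.3, numpy 2.4.6, scipy 1.17.1 and pysam 0.24.0 were used.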

Additional observations from a re-analysis of the deposited data

How the results depend on the processing

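The host values were recomputed under 12 settings, of which scaled coverage was chosen after seeing the data. The count of hosts higher by 1.5-fold was 1 with a pseudocount of 5, 1 with a minimum of 5 TPM and 0 among the 17 hosts that overlap no other gene, since GAS5 and MIR31HG both overlap one. The count lower by 1.5-fold was 4 with a pseudocount of 0.1 and 1 by scaled coverage. The count lower by 2-fold was 0 with a pseudocount of 5 and 0 by scaled coverage, where MIR17HG leaves it. The median of the nested rows was 0 with no minimum level, because most of the 148 rows are listed at 0. The median of the hosts ranged between -0.15 (minimum of 5 TPM) and 0.02 (centred). GAS5 ranged between 0.88 and 0.98 and MIR31HG between 0.41 and 0.99. Each host had a value in 9 to 11 of the settings. Of the hosts 30 kept their direction in all settings that gave them a value, and SNHG25 and SNHG33, with differences of at most 0.12, did not.

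Centring on genes at 10 TPM or more moved values by 0.09, which gave 16 hosts higher and 16 lower, and 17 nested rows higher and 38 lower. It turned the calls over all genes at 1.5-fold to 1032 higher and 672 lower, where TPM as deposited gave 760 and 990, and trimmed-mean scaling gave 951 and 737. The medians of the core snoRNP proteins, decay factors and microRNA biogenesis genes stayed below 0 under both scalings, that of ribosomal protein hosts stayed above 0, and those of the regulators and of the noncoding RNAs off the member list moved to 0.06 and 0.01 when centred.

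Depth limits the low hosts: 9 of the 32 had fewer than 100 estimated read pairs in a library. No paired analysis was possible because each group has 1 library.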
